A study of Mus musculus with 2 samples.

Results

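Interferon-stimulated and antigen presentation genes were described as a set of 36 genes, chosen by symbol from the 31053 genes of the count tables. They were 22 interferon genes (4 transcription factors and 18 effectors), 9 genes of class I antigen presentation and 5 genes of class II antigen presentation. The member list was drawn up by function, and all 36 had an entry in the tables.

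The cells came from dorsal root ganglia (DRGs), the clusters of sensory neurons beside the spinal cord, of Swiss mice aged 2 weeks. The ganglia were digested with enzymes, and the dissociated cells were kept for 3 days in culture before single-cell RNA sequencing with the 10x Chromium 3' v3 kit. The 2 libraries, A and B, were of this 1 condition and were run on the same chip. No library was treated with interferon, infected or left uncultured, so the comparisons are between cell classes. The study used male and female mice, and the sources do not say how many animals went into A or B or whether the cultures were separate. The p-values therefore measure only how far class differences varied between these libraries, with an estimate of spread shared over classes. They do not measure spread between animals. The classes were also drawn from the same cells that were compared.

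Interferons are secreted proteins that act through cell surface receptors and kinases on transcription factors of the STAT and IRF families, which switch on interferon-stimulated genes whose products limit virus entry, replication and spread. Class I molecules, made of a heavy chain and beta-2-microglobulin, show peptides from inside the cell to CD8+ T cells and are found on most nucleated cells. Class II molecules show peptides from engulfed material to CD4+ T cells and belong mainly to professional antigen-presenting cells, among them macrophages.

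After removal of barcodes with fewer than 200 genes or more than 10% mitochondrial UMIs, 10730 of 10948 barcodes were kept (A 5066, B 5664). A UMI (unique molecular identifier) counts 1 captured transcript. The files held 40355401 UMIs in A and 38945848 in B, and 7 barcodes occurred in both libraries. Clustering with the members held out, which rebuilt the classes and need not match the study's own, gave 82 macrophages, 389 fibroblasts, 9448 glia and 811 neurons. Macrophage markers summed to 25008 and 28206 CPM (UMIs of the gene over all UMIs of that class in that library, on the usual CPM scale; library A is given first throughout) in the macrophages, 5.66 and 5.82 in fibroblasts, 6.65 and 8.44 in glia and 39.9 and 182 in neurons. The macrophages also held glial markers at 1001 and 643 CPM, against 3878 and 3813 in glia, and fibroblast markers at 1913 and 531 CPM, against 25449 and 22806 in fibroblasts. Glial markers summed to 545 and 560 CPM in neurons and 147 and 217 in fibroblasts. The median cell had 8935 UMIs among macrophages, 11510 among fibroblasts, 4723 among glia and 28332 among neurons.

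The members lie on 15 mouse chromosomes. On chromosome 17, chr17:33915899-35267499 (GRCm38), a span of 1351.6 kb, holds 10 members: H2-K1, H2-D1, Tap1, Tap2, Tapbp, Psmb8, Psmb9, H2-Aa, H2-Ab1 and H2-Eb1. The 3 Ifit genes lie within 99.3 kb of chromosome 19. RefSeq promoter windows (GRCm38.p6), from 250 bases before to 50 bases after a start site, were matched for 27 members, and 9 had no window in the table used: Ifi27, Ifi27l2a, Usp18, Mx1, Tap2, Nlrc5, H2-Ab1, Cd74 and Ciita. On either strand, the letters GAAANNGAAA of the interferon-stimulated response element (ISRE) were found in 12 of these 27, against 3.44% of 32851 windows of all genes. Here and below, members were counted by gene, with a match in any of its windows, and the background by window, so the units differ. By role they were found in 10 of 14 effectors, 1 of 4 transcription factors (Stat2), 1 of 7 class I genes (B2m) and 0 of 2 class II genes. The letters TTCNNNGAA of the gamma-activated site (GAS) were found in 7 of 27 against 8.3% of windows, and both motifs in 3 (Ifitm3, Bst2 and Oas1a) against 0.454%. Such a match is a run of letters and was not shown to be a site in use. Sites that differ from these letters are missed, so a window without a match may still hold one. The members were chosen by their link to interferon and antigen presentation, so these shares are not a test of the set.

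The 150 bases before the RefSeq start are shown, 5′ to 3′ on the gene's strand, for 5 members with an ISRE match, chosen as examples of members highest in glia (Isg15 and Gbp3), in fibroblasts (Ifitm2) and in macrophages (Bst2 and B2m). No member highest in neurons is shown. Capitals mark bases of an ISRE or GAS match. The stretches are chr4:156200819-156200968 (minus strand), chr3:142559894-142560043 (plus strand), chr7:140955962-140956111 (minus strand), chr8:71537473-71537622 (minus strand) and chr2:122147537-122147686 (plus strand). The last bases of the Gbp3, Ifitm2 and B2m stretches lie within the gene in the GENCODE annotation, and the other stretches lie upstream of it.
Isg15: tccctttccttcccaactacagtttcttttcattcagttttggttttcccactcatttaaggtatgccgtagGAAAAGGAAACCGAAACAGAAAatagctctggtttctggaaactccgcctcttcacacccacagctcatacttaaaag
Gbp3: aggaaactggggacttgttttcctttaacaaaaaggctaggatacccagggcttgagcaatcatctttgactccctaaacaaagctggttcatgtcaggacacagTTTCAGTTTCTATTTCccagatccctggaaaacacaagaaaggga
Ifitm2: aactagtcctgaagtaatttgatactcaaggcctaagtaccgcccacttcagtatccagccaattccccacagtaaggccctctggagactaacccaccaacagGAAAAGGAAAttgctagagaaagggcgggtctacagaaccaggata
Bst2: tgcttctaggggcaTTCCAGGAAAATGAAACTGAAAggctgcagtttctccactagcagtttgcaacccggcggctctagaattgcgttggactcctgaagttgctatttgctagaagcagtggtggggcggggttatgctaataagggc
B2m: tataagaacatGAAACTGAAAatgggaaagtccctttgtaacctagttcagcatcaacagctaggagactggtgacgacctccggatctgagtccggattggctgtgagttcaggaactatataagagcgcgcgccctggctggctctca
Isg15 has 3 overlapping ISRE matches in 1 run. In Gbp3 a pair of matches overlap and read on the opposite strand, Bst2 has a pair of ISRE matches that overlap each other and a GAS match, and Ifitm2 and B2m have 1 match each, which begins 46 and 139 bases before the start. The windows of H2-K1, H2-D1, Tap1, Tapbp and Psmb9 held neither motif, and that of Psmb8 held a GAS match.

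No single class led the set. By mean CPM, 8 of the 18 interferon effectors were highest in glia, 5 in macrophages, 3 in neurons and 2 in fibroblasts. Of the 9 class I genes 5 were highest in macrophages and 4 in glia, and of the 5 class II genes 4 were highest in macrophages. The macrophage places of Rsad2, Mx1, Nlrc5, H2-Aa and H2-Eb1 rested on 3 or fewer UMIs. Libraries of the first and second class overlapped for these genes and for Ifit1, Usp18, Ifi27l2a, H2-K1, Tap1, Tapbp and Psmb9. The share of all genes highest in each class was not counted. Summed over the 22 interferon genes, fibroblasts reached 2771 and 2925 CPM, glia 1717 and 1662, macrophages 1329 and 1317 and neurons 751 and 746. Most of the fibroblast sum came from Ifitm2 (1114 and 1145 CPM) and Ifitm3 (1321 and 1403 CPM). Of the 19 interferon genes tested, 10 were lower and 2 higher in fibroblasts than glia, where 24.6% and 29.4% of all genes were. The 9 class I genes summed to 3035 and 2756 CPM in macrophages, 1788 and 1839 in glia, 1044 and 1035 in fibroblasts and 661 and 724 in neurons. Class II sums were 138 and 26.9 CPM in macrophages and at most 3.86 in any library of the other classes. The library values of these sums did not overlap between any pair of classes. Levels are compared between classes within a gene, since capture differs from gene to gene.

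**Figure D1:**
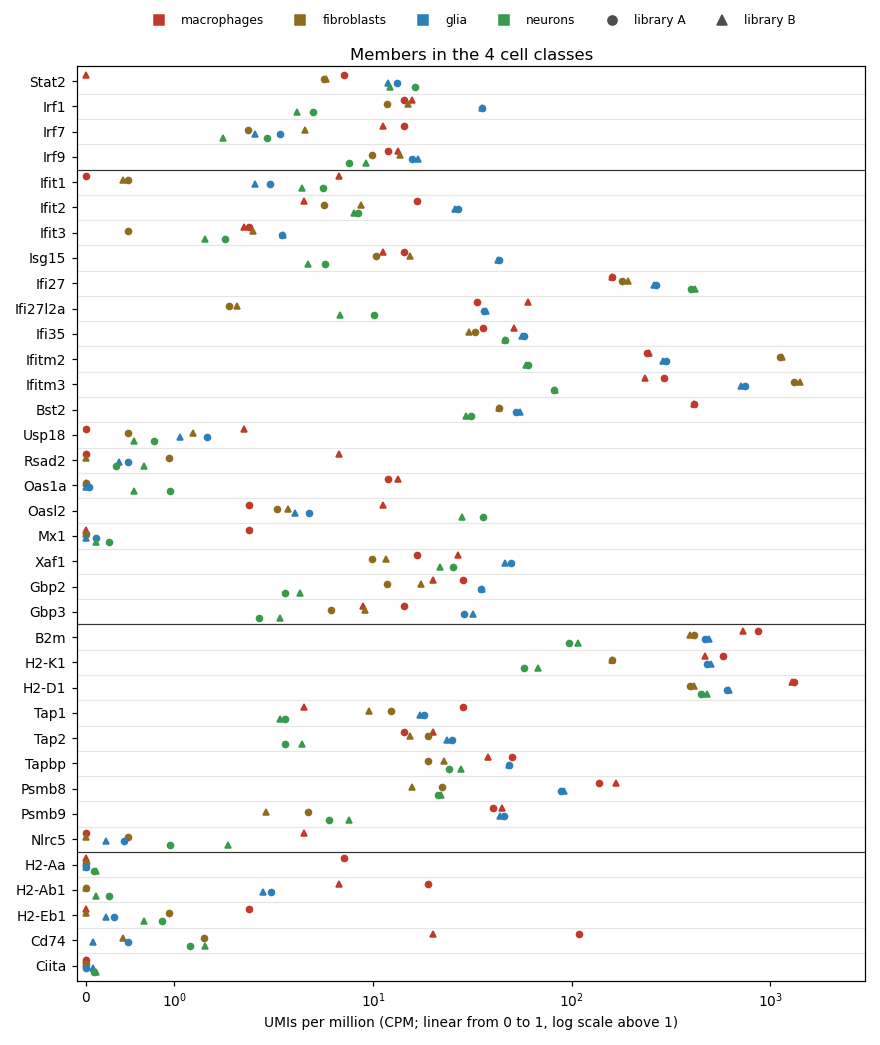
Level of each of the 36 members (CPM, linear from 0 to 1 and log scale above 1) in the 4 cell classes, a circle for library A and a triangle for library B; horizontal lines divide transcription factors, effectors, class I and class II genes. Bst2 stands at 411 and 412 in macrophages, Ifitm2 and Ifitm3 are highest in fibroblasts, and the class II genes at the bottom are near 0 outside the macrophages.

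Among the transcription factors, Irf1, an activator induced by interferon gamma, stood at 35.6 and 35.2 CPM in glia, 14.3 and 15.7 in macrophages, 11.8 and 15.0 in fibroblasts and 4.99 and 4.16 in neurons. Irf7, which drives interferon alpha genes, was highest in macrophages at 14.3 and 11.2 CPM from 11 UMIs, against 3.42 and 2.55 in glia. Irf9 and Stat2, partners in the complex that binds the ISRE, differed less. Irf9 stood at 15.7 and 16.8 CPM in glia and 7.58 and 9.20 in neurons, and Stat2 at 13.2 and 11.9 in glia, 16.4 and 12.2 in neurons and 5.66 and 5.82 in fibroblasts, with 3 UMIs in all macrophages.

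Of the effectors, Isg15, a ubiquitin-like protein that is joined to other proteins, had a glial pattern. It stood at 43.2 and 42.6 CPM in glia, 14.3 and 11.2 in macrophages, 10.4 and 15.4 in fibroblasts and 5.77 and 4.71 in neurons. The guanylate-binding proteins Gbp2 and Gbp3 and the pro-apoptotic Xaf1 were also highest in glia. Gbp2 stood at 34.9 and 35.3 CPM in glia and 3.62 and 4.27 in neurons, Gbp3 at 28.6 and 32.0 in glia and 2.67 and 3.40 in neurons, and Xaf1 at 49.3 and 45.9 in glia and 25.4 and 21.8 in neurons. The RNA-binding Ifit2 stood at 26.7 and 25.9 CPM in glia and 8.44 and 8.0 in neurons. These 5 genes were named as highest in glia, so their place above neurons follows from that choice. Of the 15 effectors tested, 10 were lower and 4 higher in neurons than glia, where 34.9% and 48.4% of all genes were.

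Ifitm2 and Ifitm3, membrane proteins that block virus entry, were the most abundant effectors of fibroblasts. Ifitm2 stood at 1114 and 1145 CPM in fibroblasts, 297 and 287 in glia, 240.1 and 246 in macrophages and 60.3 and 59.0 in neurons. Ifitm3 stood at 1321 and 1403 CPM in fibroblasts, 746 and 708 in glia, 292 and 233 in macrophages and 81.1 and 82.0 in neurons. Bst2, a tether that holds budding virus at the cell surface, was a macrophage gene, with 411 and 412 CPM against 52.6 and 54.6 in glia, 42.9 and 43.2 in fibroblasts and 31.3 and 29.5 in neurons. It had a UMI in 96.3% of macrophages and 22.7% of glia, and in 45.1% and 9.90% when each cell was thinned to 2000 UMIs.

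Neurons led for Ifi27, a small membrane protein induced by type I interferon, and for Oasl2, an oligoadenylate synthetase-like protein. Ifi27 stood at 399 and 417 CPM in neurons, 264 and 259 in glia, 179.7 and 193 in fibroblasts and 159 and 159 in macrophages. Oasl2 stood at 35.6 and 28.0 CPM in neurons and 4.76 and 4.07 in glia. Ifi27l2a, a paralog of Ifi27 on the same chromosome, had another order, with 33.3 and 60.5 CPM in macrophages, 36.4 and 37.0 in glia, 10.1 and 6.79 in neurons and 1.89 and 2.08 in fibroblasts. Its macrophage libraries straddled the glial level. Ifi35 lay between 30.3 and 57.5 CPM in every library of every class.

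Several effectors that mark a strong interferon response were scarce everywhere. Usp18, an ISG15 protease, reached at most 2.24 CPM, which was 1 UMI in macrophages of library B, and stood at 1.46 and 1.06 CPM in glia. Rsad2 (viperin) stood at 0.472 and 0.380 CPM in glia, and Mx1 had 3 UMIs in 9448 glia and 4 in 811 neurons. Ifit1 and Ifit3 were also low in glia, Ifit1 at 3.03 and 2.55 and Ifit3 at 3.50 and 3.53 CPM. Oas1a, an oligoadenylate synthetase that senses double-stranded RNA, had 11 UMIs in macrophages (11.9 and 13.4 CPM), 16 in neurons, 1 in glia and 0 in fibroblasts.

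UMIs of class I genes were found in all 4 classes. Neurons also held glial markers, at 545 and 560 CPM. How far glial RNA moved the neuronal values of class I and interferon genes was not tested. B2m, the light chain, stood at 865 and 726 CPM in macrophages, 471 and 491 in glia, 414 and 394 in fibroblasts and 96.7 and 108 in neurons. The heavy chain gene H2-D1 stood at 1319 and 1279 CPM in macrophages, 608 and 619.9 in glia, 393 and 415 in fibroblasts and 447 and 481 in neurons. H2-K1, the other classical heavy chain, stood at 580.0 and 470.5 CPM in macrophages and 482 and 503 in glia, where the libraries overlapped, at 159 and 159.9 in fibroblasts and at 57.9 and 67.9 in neurons. Neurons thus lay above fibroblasts for H2-D1 in both libraries, and below all other classes for B2m and H2-K1. In cells thinned to 2000 UMIs, 79.3% of macrophages, 59.3% of glia, 54.3% of fibroblasts and 18.1% of neurons had a B2m UMI, against all macrophages and 85.2%, 93.3% and 78.5% of the others unthinned.

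The immunoproteasome subunits Psmb8 and Psmb9, which change how peptides are cut, were high in macrophages and glia and low in the other classes. Psmb8 stood at 138 and 168 CPM in macrophages, 88.5 and 91.5 in glia, 22.2 and 15.8 in fibroblasts and 21.2 and 22.1 in neurons. Psmb9 stood at 40.4 and 44.8 CPM in macrophages, 45.4 and 43.6 in glia, 4.72 and 2.91 in fibroblasts and 6.03 and 7.56 in neurons. Tapbp (tapasin), which loads peptide onto class I, stood at 49.9 and 38.1 CPM in macrophages and 48.2 and 48.6 in glia. Of the peptide transporter genes, Tap1 stood at 18.0 and 17.3 CPM in glia and 3.62 and 3.40 in neurons, and Tap2 at 24.9 and 23.6 in glia and 3.62 and 4.38 in neurons. Nlrc5, the class I transactivator, had 17 UMIs in glia, 28 in neurons and 2 in macrophages.

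Class II genes were low even in the macrophages. Cd74, the invariant chain that guards the class II groove, had 55 UMIs in macrophages (109 and 20.2 CPM), 27 in neurons, 14 in glia and 4 in fibroblasts. Of the 14 in glia, 9 lay in 1 cell with 0 glial marker UMIs, which was kept in the glial sums. H2-Ab1, a class II beta chain, had 11 UMIs in macrophages (19.0 and 6.72 CPM) and 152 in glia (3.07 and 2.81 CPM), against 4 in neurons and 0 in fibroblasts. Its partner H2-Aa, the alpha chain, had 3 UMIs in macrophages, 2 in neurons and 0 in glia and fibroblasts. H2-Eb1 had 1 UMI in macrophages, 14 in glia and 16 in neurons. Ciita, the class II transactivator, had 0 UMIs in macrophages, 2 in glia and 2 in neurons, and 3 UMIs would have been 7.13 CPM in the macrophages of A and 6.72 in those of B. The H2-Ab1 UMIs of glia came without those of the alpha chain.

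Class II UMIs were concentrated in few macrophages. A UMI of Cd74, H2-Aa, H2-Ab1 or H2-Eb1 was found in 18 of 82 macrophages (22%, exact 95% confidence interval 13.6 to 32.5%), which were 29.7% of those in A and 15.6% of those in B. The other 64 had 0. A pair of macrophages in library A had 26 and 17 class II UMIs, or 43 of the 70 in all macrophages, and these 2 cells also held 34 of the 55 Cd74 UMIs and every H2-Aa and H2-Eb1 UMI. They held macrophage markers (299 Lyz2 and 122 C1qa UMIs) and 0 UMIs of the dendritic cell markers Flt3, Cd209a, Xcr1, Clec9a, Zbtb46, Itgax and Ccr7. Without them, Cd74 stood at 30.1 and 20.2 CPM and H2-Ab1 at 7.53 and 6.72 CPM in the macrophages. B2m and H2-D1 were found in all 80 other macrophages. For comparison, a Cd74 UMI was found in 17.1% of macrophages, 2.10% of neurons, 0.771% of fibroblasts and 0.0635% of glia. Intervals cover counting error only.

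**Figure D2:**
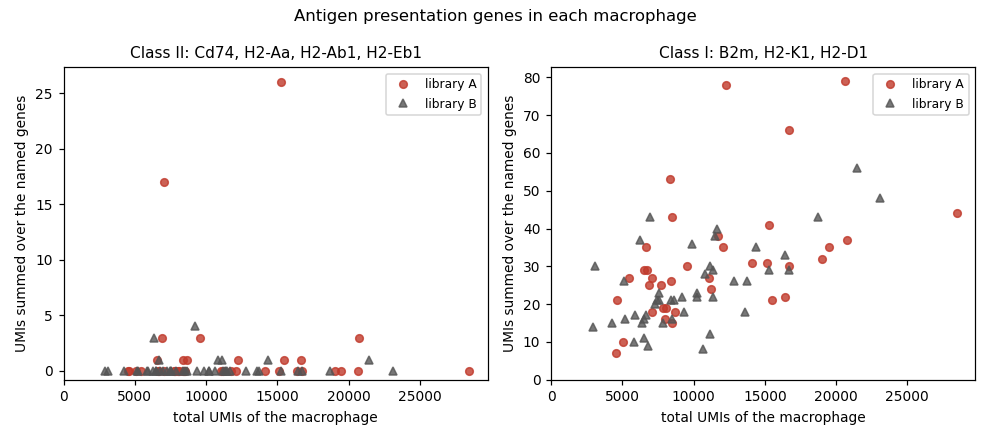
UMIs of 4 class II genes (left) and of 3 class I genes (right) in each of the 82 macrophages against the cell's total UMIs, circles for library A and triangles for library B. On the left 2 cells of library A stand at 26 and 17 UMIs and 64 cells at 0, while on the right every macrophage has class I UMIs.

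The classes were compared with edgeR's quasi-likelihood test on UMI sums per library and class, with library as a block, over 13784 genes of which 30 were members. Adjusted p-values are Benjamini-Hochberg values over all genes tested, a call is an adjusted p under 0.05, and folds are log2 ± standard error with n = 2 libraries. The other 6 members (Usp18, Rsad2, Mx1, H2-Aa, H2-Eb1 and Ciita) had too few UMIs to be tested.

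Macrophages were higher than glia for 4 of 9 class I genes and for both class II genes tested. Of the 30 members, 10 were higher in macrophages, where 15.4% of all genes were called higher, and 2 were lower, where 14.8% of all genes were. The higher members were Irf7, Ifi27l2a, Bst2, Oas1a, B2m, H2-K1, H2-D1, Psmb8, H2-Ab1 and Cd74, and the lower ones Isg15 and Ifitm3. The median log2 fold change was 0.27 over the members and −0.23 over all genes. Cd74 had the largest change in class II at 8.17 ± 0.54, adjusted p = 8.25e-13. Without the 2 class II-rich cells it was 6.86, and then 8 members were higher and 2 lower, where 2102 and 2036 of 13778 genes were. H2-Ab1, with 11 UMIs, stood at 1.67 without those cells and did not pass (adjusted p = 0.114), nor did it with the 5% mitochondrial limit (adjusted p = 0.166). With cells thinned to 2000 UMIs 5 members were higher, where 814 of 8926 genes were. The untested difference in log2(CPM + 1) of Cd74 was 6.23 in library A and 4.30 in library B. Bst2 differed by 3.35 ± 0.11, adjusted p = 2.63e-19, H2-D1 by 1.48 ± 0.06, adjusted p = 2.93e-17, Psmb8 by 1.17 ± 0.16, adjusted p = 9.52e-07 and B2m by 1.13 ± 0.08, adjusted p = 2.59e-12. Isg15 had −1.35 ± 0.39, adjusted p = 0.00811, and with cells thinned to 2000 UMIs −1.53, which did not pass (adjusted p = 0.24). The libraries were on the same side on the CPM scale for 8 of the 10 higher members, the exceptions being H2-K1 and Ifi27l2a.

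The macrophage and glia comparison depended on scaling. The edgeR default (TMM) moved the median of all genes by 0.40 relative to scaling by library size, and with library size alone 8 members were higher and 9 lower in macrophages, H2-K1 and Ifi27l2a no longer being called. With that scaling, 1452 of all 13784 genes were higher and 3825 lower. As a measure of macrophage RNA in glia, these held Lyz2 at 0.0286% of the macrophage level and Bst2 at 13.0% of it. How far the glial and fibroblast RNA in the macrophages moved their values was not tested.

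Fibroblasts were lower than glia for most members. Of 30 tested, 16 were lower, where 24.6% of all genes were, and 2 were higher, where 29.4% were. The lower members were 2 transcription factors (Stat2 and Irf1), 8 effectors, 5 class I genes (H2-K1, H2-D1, Tapbp, Psmb8 and Psmb9) and H2-Ab1. The median over members was −0.76 against 0.01 over all genes. Ifi27l2a differed by −3.81 ± 0.34, adjusted p = 1.79e-10 and Psmb9 by −3.17 ± 0.25, adjusted p = 1.09e-11. Psmb8, Xaf1 and Gbp3 followed at −1.87 ± 0.15, adjusted p = 1.10e-11 for Psmb8, −1.74 ± 0.18, adjusted p = 4.87e-09 for Xaf1 and −1.58 ± 0.21, adjusted p = 3.30e-07 for Gbp3. The 2 higher members were the Ifitm genes, with Ifitm2 at 2.34 ± 0.05, adjusted p = 6.74e-24. B2m was among the members that did not pass. H2-Ab1, with 0 UMIs in fibroblasts, is given no fold. With cells thinned to 2000 UMIs, 9 members were called lower, where 1626 of 8926 genes were. Irf1, Ifi35, Gbp2 and Tapbp were then tested and did not pass, while Ifi27l2a stood at −4.47, Xaf1 at −3.29 and Gbp3 at −3.32. With library size alone, 21 were lower and 2 higher, where 5873 and 2600 of 13784 genes were.

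Neurons were also lower than glia for most members. Of 30, 21 were lower, where 34.9% of all genes were, and 7 were higher, where 48.4% were, and the medians were −1.08 over members and 0.23 over all genes. All class I genes except Nlrc5 were among the lower ones. Gbp3 differed by −3.02 ± 0.15, adjusted p = 5.77e-17, Gbp2 by −2.86 ± 0.14, adjusted p = 4.71e-17, Ifitm3 by −2.85 ± 0.06, adjusted p = 1.42e-25, Isg15 by −2.71 ± 0.12, adjusted p = 1.66e-17 and H2-K1 by −2.67 ± 0.06, adjusted p = 4.14e-24. With cells thinned to 2000 UMIs, Gbp2 stood at −2.10 and Isg15 at −1.88, and with the 5% mitochondrial limit Gbp2 stood at −3.57 and Oasl2 at 2.54. H2-D1 had the smallest called change, −0.10, and it was called higher, by 0.20, when only cells with at most 5% mitochondrial UMIs were used. The 7 higher members were Stat2, Ifit1, Ifi27, Oas1a, Oasl2, Nlrc5 and Cd74, of which Oasl2 had the largest change among those at 20 CPM or more, 3.15 ± 0.12, adjusted p = 2.18e-19. The higher count was 4 with the 5% mitochondrial limit, where Stat2 (−0.23), Ifit1 (−0.62) and Cd74 (−1.12) turned and did not pass, and 2 with cells thinned to 2000 UMIs. In these settings 4699 of 12569 and 3499 of 8926 genes were higher.

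Neurons of library B held more macrophage marker RNA than those of A (marker sums of 39.9 and 182 CPM). Lyz2 stood at 0.0137% and 0.688% of the macrophage level in neurons of A and B. Aif1, another of the markers, stood at 19.6% and 21.1% of it in both libraries. Leaving out neurons with a marker UMI therefore also left out neurons for Aif1. How far Aif1 and depth set that choice was not tested. Among the 388 of 811 neurons with no macrophage marker UMI, 5 members were higher and 21 lower than in glia. Of the 12712 genes tested in that setting, 5563 were higher and 4308 lower. Oasl2 then stood at 28.7 and 27.1 CPM, Ifi27 at 347 and 353, and Cd74 at 2.57 and 1.21 CPM from 15 UMIs. Ifitm3 stood at 127 and 111 CPM in these neurons, against 81.1 and 82.0 in all neurons. Ifit1 no longer passed, with a log2 fold of 0.61.

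**Figure D3:**
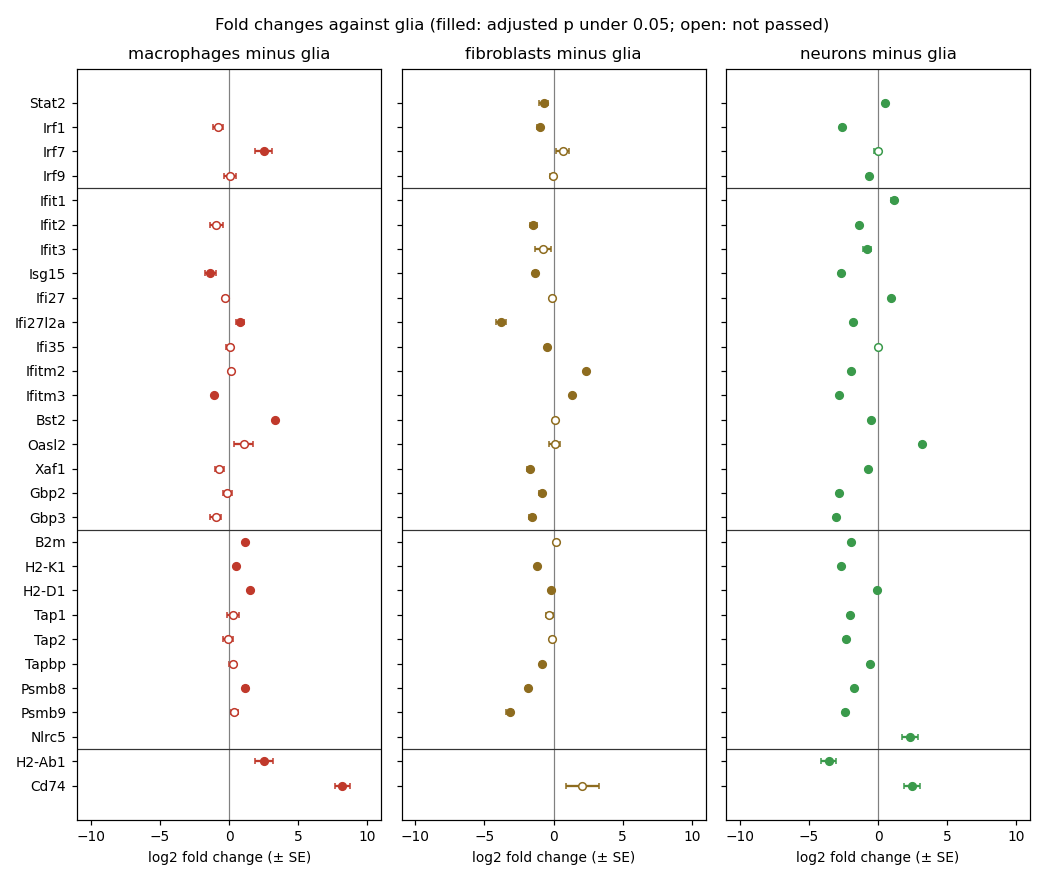
Log2 fold changes of tested members in macrophages, fibroblasts and neurons relative to glia (x axis, ± standard error, 2 libraries), filled where the adjusted p was under 0.05; members with 3 or fewer UMIs in either class of a comparison are left out of that panel. Most fibroblast and neuron points lie left of 0, and in macrophages Bst2, H2-D1, B2m and Psmb8 lie to the right.

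Macrophages against fibroblasts gave 12 members higher, where 11.8% of all genes were called higher, and 2 lower, where 14.3% were. The higher members included 6 of the 9 class I genes: B2m, H2-K1, H2-D1, Tapbp, Psmb8 and Psmb9. Cd74 differed by 6.09 ± 0.63, adjusted p = 1.28e-08, (3.90 in log2(CPM + 1) in library B alone), and by 4.79 without the 2 class II-rich cells. Ifi27l2a differed by 4.58 ± 0.52, adjusted p = 6.32e-08, Psmb9 by 3.51 ± 0.42, adjusted p = 1.87e-07, Bst2 by 3.27 ± 0.13, adjusted p = 5.61e-17 and Psmb8 by 3.04 ± 0.22, adjusted p = 9.54e-12. The lower members were the Ifitm pair, with Ifitm3 at −2.37 ± 0.09, adjusted p = 1.67e-17. With cells thinned to 2000 UMIs 6 members were higher, where 573 of 8926 genes were. Psmb9 then stood at 2.15 and did not pass (adjusted p = 0.30). In this comparison the median was 0.98 over members and −0.11 over all genes, and the comparison shares its libraries with those above.

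Glia fell into 5 clusters. A satellite-like resting cluster (3521 cells), named for the glia that wrap sensory neurons, had Fabp7 at 1524 CPM, Kcnj10 at 187 and Apoe at 9361, and 1 other resting cluster (1966 cells) had them at 177, 69.7 and 1424 and led in Ngfr (221 CPM) and Btc (118). Ednrb, another satellite marker, did not separate these 2 clusters (273 and 315 CPM). The 3 proliferating clusters were 1 with mitotic genes and satellite markers (1956 cells), 1 with DNA replication genes (1096) and 1 called low-satellite (909). That name rests on Fabp7 at 189 CPM, Kcnj10 at 53.7 and Apoe at 1088. Ednrb went the other way, at 314 CPM there, 232 in the mitotic and 201 in the DNA replication cluster. Glul stood at 22.8, 27.1 and 20.4 CPM in the same order. The summed interferon genes stood at 2077 and 2021 CPM in the satellite-like cluster, 1211 and 1188 in the other resting cluster, 1745 and 1752 in the mitotic, 1951 and 1887 in the DNA replication and 1149 and 1083 in the low-satellite proliferating cluster. Class I sums were 2000.04 and 2046 CPM in the satellite-like, 1545 and 1585 in the other resting, 1769 and 1895 in the mitotic, 1895 and 1928 in the DNA replication and 1504 and 1505 in the low-satellite proliferating cluster. The interferon sum rested most on Ifitm3, at 979 and 935 CPM in the satellite-like and 405 and 390 in the other resting cluster. For both sums the low-satellite clusters, 1 resting and 1 proliferating and both low in Fabp7, Kcnj10 and Apoe, had the lowest values in both libraries.

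This order held for many single members. Of 27 members with at least 100 UMIs in glia, 16 had lower mean CPM in both low-satellite clusters than in all of the other 3, a pattern looked for after the values were seen and shown by 20.2% of 11434 genes at that depth. They were Stat2, Irf1, Isg15, Ifi27, Ifi27l2a, Ifi35, Ifitm2, Ifitm3, Bst2, Oasl2, H2-K1, H2-D1, Tap2, Tapbp, Psmb8 and Psmb9. Ifi27l2a had the widest range, 9.5-fold, from 58.0 and 65.6 CPM in the satellite-like to 9.68 and 3.33 in the low-satellite proliferating cluster. Ifitm3 stood at 979 and 935 CPM in the satellite-like cluster, 405 and 390.0 in the other resting and 385 and 371 in the low-satellite proliferating cluster.

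Against the other resting glia, 16 of 27 tested members were higher in the satellite-like cluster, where 19.9% of 11652 genes were, and 2 were lower, where 18.4% were. The median was 0.42 over members and 0.00 over all genes. The higher members were Stat2 and Irf1, 7 effectors and 7 class I genes, and the lower ones Gbp2 and H2-Ab1. Ifi27l2a was higher by 2.80 ± 0.14, adjusted p = 1.98e-39, Ifitm3 by 1.22 ± 0.03, adjusted p = 1.52e-75, Psmb9 by 1.05 ± 0.13, adjusted p = 1.29e-12, Ifi27 by 0.60 ± 0.05, adjusted p = 2.16e-23 and Psmb8 by 0.56 ± 0.08, adjusted p = 2.38e-10. Gbp2 differed by −0.86 ± 0.10, adjusted p = 5.57e-14, with 33.4 and 33.7 CPM against 65.0 and 53.7. H2-Ab1 stood at 3.31 and 3.46 CPM against 5.41 and 5.76. The count depended on how resting glia were divided: with clustering resolution 0.3, 4 were higher and 4 lower, and 3 of the 18 calls held under every alternative. With resolution 0.3, 1942 of 11537 genes were higher and 2497 lower. At that resolution Ifi27l2a stood at 0.94 and Ifitm3 at 0.55, while Psmb9 (0.12), Ifi27 (0.05) and Psmb8 (0.09) did not pass.

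The mean of the 3 proliferating clusters was compared with the mean of both resting clusters. Of 27 members 6 were higher, where 27.7% of all genes were, and 7 lower, where 28.1% were, and the medians were −0.07 and −0.02. Neither count exceeded the share of all genes. The member counts moved with the clustering: 11 were higher at resolution 0.1 and with 10 dimensions, 14 were lower at resolution 0.3 and 13 with more variable genes. In the same order, 3903 of 12503 and 3343 of 11629 genes were higher, and 3236 of 11537 and 3214 of 11760 lower. Under every alternative, 4 of the 13 calls held. Of the 8 class I genes tested, 4 were higher (H2-K1, Tap1, Psmb8 and Psmb9) and 2 were lower. Psmb9 was higher by 0.83 ± 0.08, adjusted p = 3.21e-18 and its chromosomal neighbour Tap1 by 0.70 ± 0.11, adjusted p = 4.13e-08. Ifit2 was higher by 0.44 ± 0.08, adjusted p = 2.46e-06 and Psmb8 by 0.26 ± 0.05, adjusted p = 5.37e-06, which turned to −0.046 and did not pass when more variable genes were used for clustering. Gbp2 differed by −0.46 ± 0.07, adjusted p = 5.25e-09 and Xaf1 by −0.32 ± 0.06, adjusted p = 1.13e-05. With the 5% mitochondrial limit Tap1 (0.70), Psmb8 (0.29) and Xaf1 (−0.33) did not pass. Psmb9 was highest in the mitotic cluster, at 70.0 and 66.3 CPM, against 37.2 and 40.2 in the satellite-like, 17.6 and 18.7 in the other resting, 39.4 and 42 in the DNA replication and 40.02 and 34.4 in the low-satellite proliferating cluster. B2m went the other way, with 403 and 433 CPM in the mitotic and 538 and 556 in the satellite-like cluster.

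**Figure D4:**
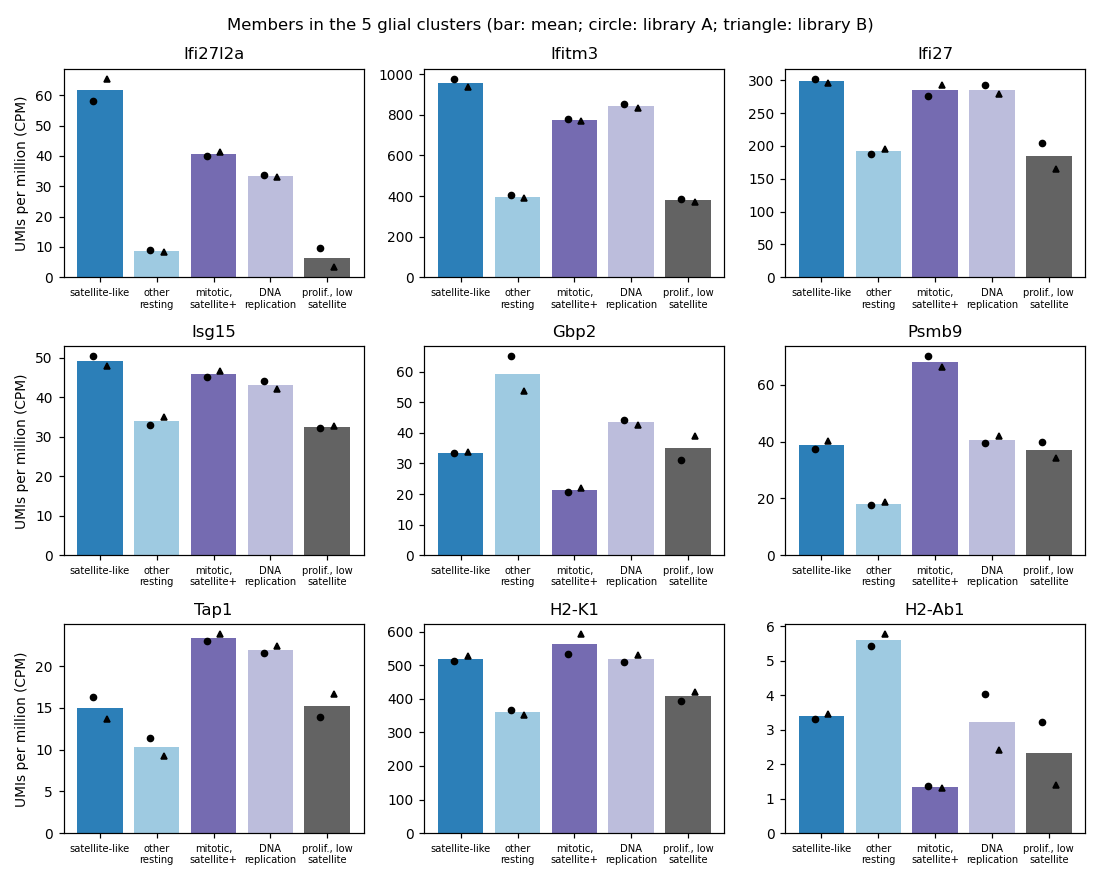
Level of 9 members in the 5 glial clusters (CPM; the bar is the mean of both libraries, the circle library A and the triangle library B). Ifi27l2a, Ifitm3 and Ifi27 are low in the other resting and the low-satellite proliferating clusters, Psmb9 is highest in the mitotic cluster, and Gbp2 and H2-Ab1 are highest in the other resting cluster.

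Cells with several interferon signature genes were few at equal depth. The signature held 11 genes: the transcription factor Irf7 and the effectors Ifit1, Ifit2, Ifit3, Isg15, Usp18, Rsad2, Oas1a, Oasl2, Mx1 and Xaf1. At least 3 of them had a UMI in 271 of 9448 glia (2.87%, interval 2.54 to 3.23%) and 111 of 811 neurons (13.7%, 11.4 to 16.2%). The same held for 7 of 389 fibroblasts (1.80%, 0.726 to 3.67%) and 2 of 82 macrophages (2.44%, 0.297 to 8.53%). The highest share, that of neurons, was in the deepest cells. With each cell thinned to 2000 UMIs they were 43 of 9267 glia (0.464%), 2 of 769 neurons (0.260%), 0 of 383 fibroblasts and 0 of 82 macrophages, with exact upper limits of 0.959% and 4.40%. No glial cell had 5 of these genes after thinning, and unthinned 13 glia and 12 neurons did.

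Other genes of the pathway were described from 6 lists. Of 131 names, 126 genes were in the tables. Interferon ligand genes (10) were too low to be tested in any comparison. Of 11 receptors and kinases tested, 4 were higher in macrophages than glia (15.4% of all genes), 5 were higher and 2 lower in fibroblasts (29.4% and 24.6% of all genes), and 4 were higher and 5 lower in neurons (48.4% and 34.9% of all genes). Ifnar2, a subunit of the type I interferon receptor, stood at 92.7 and 82.9 CPM against 51.3 and 54.2 in macrophages and glia (1.14 ± 0.19, adjusted p = 3.38e-05). In neurons and glia it stood at 13.3 and 16.4 CPM against 51.3 and 54.2 (−1.54 ± 0.09, adjusted p = 7.24e-15), and the interferon gamma receptor subunit Ifngr1 at 14.8 and 17.0 CPM against 76.4 and 74.9 (−1.96 ± 0.09, adjusted p = 1.03e-17).

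Among 43 tested members of a list of other interferon-stimulated genes, 17 were higher and 3 lower in macrophages than glia, 14 and 15 in fibroblasts, and 15 and 20 in neurons. The shares of all genes called higher and lower were 15.4% and 14.8% in macrophages, 29.4% and 24.6% in fibroblasts, and 48.4% and 34.9% in neurons, so the counts in fibroblasts lay near the share of all genes for higher calls and those in neurons below it. Fibroblasts had Ifitm1, of the same family as Ifitm2 and Ifitm3, at 90.6 and 87.6 CPM against 0.197 and 0.228 in glia (9.01 ± 0.21, adjusted p = 1.21e-22), and the DNA-binding Ifi203 at 45.8 and 44.9 CPM against 0.118 and 0.266 (8.16 ± 0.26, adjusted p = 3.49e-20). Macrophages had no Ifitm1 UMI. The chemokine Cxcl10 stood at 4.82 and 6.35 CPM against 80.3 and 73.0 in neurons and glia (−3.50 ± 0.12, adjusted p = 1.41e-20). Within glia it stood at 44.5 and 40.1 CPM against 104 and 83.6 in the satellite-like and other resting clusters (−1.19 ± 0.08, adjusted p = 1.99e-28).

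Of 17 other class I genes tested, neurons were lower than glia for 14 and higher for 3, macrophages higher for 6, and fibroblasts higher for 8 and lower for 6, against 34.9% of all genes lower and 48.4% higher in neurons, 15.4% higher in macrophages, and 29.4% higher and 24.6% lower in fibroblasts. The nonclassical H2-T23 stood at 27.8 and 25.8 CPM against 6.49 and 7.33 in fibroblasts and glia (2.34 ± 0.18, adjusted p = 1.20e-11), opposite in direction to H2-Q4 at 3.30 and 0.831 CPM against 29.0 and 27.6 (−3.43 ± 0.33, adjusted p = 6.59e-10). Of 12 other class II genes tested, 7 were higher in macrophages than in glia, where 15.4% of all genes were. Ctss, the protease that trims the invariant chain, stood at 1680.5 and 1844 CPM against 0.590 and 0.304 in macrophages and glia and Lgmn, another lysosomal protease, at 1284 and 1319.6 CPM against 61.0 and 60.4 in macrophages and glia (4.83 ± 0.08, adjusted p = 3.17e-26 for Lgmn). The costimulator Cd86 stood at 47.5 and 47.0 CPM in macrophages with 0 UMIs in glia and in fibroblasts.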

How the data were processed

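Single-cell libraries A and B of cultured mouse DRG cells, 2 replicates of 1 group, were analysed. The authors deposited, per library, 1 sparse matrix holding raw UMI counts of every gene in each barcode, from Cell Ranger with the mm10-3.0.0 reference (Ensembl 93); the submitters' notes name Cell Ranger 3.0.2 and Seurat 3. The deposited counts are raw and filtered to cells. Swiss mouse reads were mapped to a C57BL/6J reference, and how this moved the polymorphic H2 genes was not tested. Near-identical copies (H2-K1, H2-D1 and H2-Q genes, Ifitm2 and Ifitm3, Ifit3 and Ifit3b, Oas1a and Oas1g, Gbp genes) can share or lose reads. The members and gene lists were chosen with earlier results of these data known.

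Cells with at least 200 genes and at most 10% mitochondrial UMIs were clustered in Seurat 5.3.0 (R 4.3.3, 2000 variable genes, 20 dimensions, resolution 0.18) with 162 member and pathway genes held out, and named from markers. The study's stated cell number after filtering is lower than the 10730 these limits leave. Scrublet (scanpy 1.11.5) called 0 cells in A and 3 in B and so did not work as a caller, and doublets were not removed. UMI counts were summed per library and class (8 sums, 3 residual degrees of freedom, 13784 genes) or glial cluster (10 sums, 4 degrees of freedom, 11652 genes), filtered with filterByExpr, scaled by TMM and tested with edgeR 4.0.16 (quasi-likelihood, two-sided, library as a block, Benjamini-Hochberg 0.05). The block was used because both libraries give a sum to every class. SE is the absolute log2 fold divided by the root of F. Intervals are exact binomial at 95%, and the floor is 3 UMIs. Fold, SE and adjusted p are printed for at most 6 members a comparison, those with the largest absolute log2 fold change among called members with the same direction in both libraries and 20 CPM or more in the higher group, and for at most 3 genes of each other list. Shares of cells are also given with each cell thinned to 2000 UMIs, leaving out 229 shallower cells. Alternatives were DESeq2 1.42.0, no filter, no block, library size scaling, other clusterings, a 5% mitochondrial limit, removal of the top 5% of Scrublet scores, thinning, and leaving out each library. The method was tested on simulated counts with a set spread. In macrophages against glia it called 46% of 2-fold and 85% of 4-fold changes, and 4.38% of calls were false. In proliferating against other glia it called 100% of both, and 1.96% of calls were false. Members that did not pass in macrophages may therefore still differ. Positions are from GENCODE M21 (GRCm38).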

Additional observations from a re-analysis of the deposited data

How the results depend on the processing

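Of 103 called member differences, 101 kept direction and call without the replicate block and 101 without the filter on low counts. Without the block Stat2 (fibroblasts against glia, adjusted p = 0.0532) and H2-D1 (neurons against glia, adjusted p = 0.082) no longer passed, and 87 kept direction and call with DESeq2. Scaling by library size gave 9 members lower in macrophages than glia and 1 lower in satellite-like glia. All genes called lower were then 3825 of 13784 and 1820 of 11652. Thinning to 2000 UMIs, which leaves fewer counts, gave 5 higher in macrophages than glia, 9 lower in fibroblasts than glia, 2 higher in neurons than glia, 6 higher in macrophages than fibroblasts and 4 lower in proliferating glia. In the same order, 814, 1626, 3499 and 573 of 8926 genes and 2303 of 10575 genes were called. The 5% mitochondrial limit kept 2047 cells and 1 resting glial cluster, so the satellite-like comparison could not be run. It gave 4 lower in macrophages than glia, 4 higher in neurons than glia and 2 lower in proliferating glia. In the same order, 2202 and 4699 of 12569 genes and 1424 of 9842 genes were called. Lower counts in macrophages than glia were also 4 with 10 dimensions and 4 without the top 5% of Scrublet scores. There 2110 of 13816 and 2253 of 13716 genes were lower. Proliferating glia had 11 higher at resolution 0.1 and with 10 dimensions, 14 lower at resolution 0.3 and 13 lower with more variable genes. Satellite-like glia had 10 higher and 1 lower with DESeq2, 4 higher and 4 lower at resolution 0.3, and 1 lower with 10 dimensions. In the same order, 1205 and 1305 of 11652, 1942 and 2497 of 11537, and 2540 of 11629 genes were called.

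Direction reversed in macrophages against glia for Ifi27l2a when thinned (−0.024) and without replicate B (−0.13, against 0.70 without replicate A), and for H2-K1 without replicate A (−0.10, against 0.27 without replicate B). At the 5% mitochondrial limit it reversed in neurons against glia for Stat2 (−0.23), Ifit1 (−0.62), H2-D1 (0.20, adjusted p = 0.0144) and Cd74 (−1.12), and in proliferating glia for Irf9 (0.44). With more variable genes it reversed in proliferating glia for Ifi35 (−0.068) and Psmb8 (−0.046), and in satellite-like glia for Ifitm2 (−0.0083) and H2-D1 (−0.0047). At resolution 0.3 it reversed in satellite-like glia for Isg15 (−0.29), Ifi35 (−0.15), Bst2 (−0.11), Tap2 (−0.012) and H2-Ab1 (0.22). The causes were not tested.

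Cells with at least 2 signature genes were 17.1% of macrophages, 8.23% of fibroblasts, 12.1% of glia and 38.5% of neurons. Thinned, cells with 3 or more were 0%, 0%, 0.464% and 0.260%. Leaving out a library gave 0 to 4.44% of macrophages, 0 to 3.24% of fibroblasts, 2.51 to 3.28% of glia and 10.6 to 16.3% of neurons, and 15.6 to 29.7% of macrophages with class II UMIs. With 1 library left these are values with no test. In 2 added alternatives, chosen after seeing the data, macrophages without the 2 class II-rich cells had 8 members higher than in glia and 11 higher than in fibroblasts, Ifi27l2a (0.69) and H2-Ab1 (1.67) no longer passing against glia and Irf7 (1.73) no longer passing against fibroblasts, and neurons with no macrophage marker UMI had 5 higher than in glia. In the same order, 2102 and 1571 of 13778 genes and 5563 of 12712 genes were higher. Depth limits the 82 macrophages, in which 1 UMI is over 2 CPM in each library.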

Other observations

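One cell in the other resting glial cluster of library A (5915 UMIs) held 9 Cd74 and 2 H2-Ab1 UMIs, 11 of the 98 class II UMIs in the glia of that library. It had 0 UMIs of the 8 glial markers, 8 of the macrophage markers and 26 of the dendritic cell markers Flt3 and Ccr7. The same cell held 107 of the 141 UMIs of the chemokine Ccl5 in its cluster and library. In library B, 64 Ccl5 UMIs of that cluster lay in 13 of 1100 cells, 12 of them in the highest cell. In the satellite-like cluster Ccl5 had 0 UMIs in A and 1 in B. Cxcl10, another interferon-induced chemokine, was spread wider, with a UMI in 122 of 866 cells of the other resting cluster in A and 138 of 1100 in B.

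Among genes of nucleic acid sensing, 6 of 14 tested were higher in macrophages than glia and 0 lower, against 15.4% and 14.8% of all genes. Irf8, a transcription factor of the myeloid lineage, stood at 176 and 188 CPM against 0.748 and 1.14 in macrophages and glia (7.98 ± 0.26, adjusted p = 1.31e-19), and Tlr7, an endosomal receptor for single-stranded RNA, at 35.7 and 31.4 CPM in macrophages with 0 UMIs in glia. In neurons 3 were higher and 7 lower than in glia, against 48.4% and 34.9% of all genes. Among the lower was Ddx58 (RIG-I), a sensor of viral RNA, at 6.20 and 6.57 CPM against 20.5 and 19.6 (−1.35 ± 0.13, adjusted p = 2.98e-10). In proliferating glia 1 of 8 was higher, against 27.7% of all genes. It was Mb21d1 (cGAS), a sensor of DNA in the cytoplasm, at 24.8 and 25.3 CPM against 5.30 and 5.22 in other glia (2.33 ± 0.13, adjusted p = 6.55e-37).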
